A study of Homo sapiens with 7 samples.

Results

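NKX2-1, FOXE1 and PAX8 are transcription factor genes that together mark the thyroid primordium, and NKX2-1 also marks the lung bud. The accessible chromatin at their loci was followed from stem cells to pharyngeal foregut endoderm in 7 ATAC-seq peak lists. A deposited peak was counted at a locus when its summit, the position of highest signal, lay within the gene span or within 100 kb of either end. In all, 871 of 2093738 deposited peaks met this rule, with 289 at NKX2-1, 230 at FOXE1 and 352 at PAX8. Overlapping peaks were merged into regions, and a region was called strong in a library when it was among the 50000 regions with the highest deposited −log10 p of that library. Strong regions merged over the libraries gave 60 regions at the loci, 22 at NKX2-1, 16 at FOXE1 and 22 at PAX8, of 129718 across the genome.

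The human stem cell line H1 was differentiated stepwise, with no genetic change stated. The samples were 2 libraries of undifferentiated cells (hESC), 2 of definitive endoderm (hDE), 2 of anterior foregut endoderm (hAFE) and 1 of pharyngeal foregut endoderm (hPFE). Per the titles, those of hESC and hDE are re-analysed data of other work, which the titles of hAFE and hPFE do not say. In the comparisons from hDE to hAFE and from hESC to hPFE the stage and the source therefore cannot be told apart. All libraries are of 1 line, and the labels do not say whether replicates came from separate cultures, so that the spread behind the p-values may be technical. The labels name no agents or days for the stages.

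NKX2-1 encodes a homeodomain factor needed for the thyroid, the lung and the ventral forebrain. FOXE1 encodes a forkhead factor of the thyroid bud and PAX8 a paired-domain factor of the thyroid and the kidney. In thyrocytes the 3 factors act on shared target genes, among them those for thyroglobulin and thyroid peroxidase. Thyroid and lung progenitors both arise from the ventral foregut.

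The sequence upstream of 3 start sites is shown because peaks cover these stretches at different stages. Each is the 250 bases before a start site, taken from RefSeq on GRCh38.p14, the build of the files being hg38, and printed 5′ to 3′ on the strand of the gene. Capitals mark matches, on either strand, to the forkhead motif TGTTTAC, its variant TATTTAC, the GATA factor motif AGATAA, the NKX2 core CAAGTG, the SOX motif ACAATG, its variant ACAAAG, or the AP-1 motif TGANTCA.
NKX2-1 inner start, chr14:36519557-36519806, minus strand: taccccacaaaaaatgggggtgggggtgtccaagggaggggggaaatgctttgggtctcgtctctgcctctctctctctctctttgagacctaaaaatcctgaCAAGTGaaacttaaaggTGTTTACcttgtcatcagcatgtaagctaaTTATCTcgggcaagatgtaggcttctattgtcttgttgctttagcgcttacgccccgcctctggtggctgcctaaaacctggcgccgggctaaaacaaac
FOXE1, chr9:97852976-97853225, plus strand: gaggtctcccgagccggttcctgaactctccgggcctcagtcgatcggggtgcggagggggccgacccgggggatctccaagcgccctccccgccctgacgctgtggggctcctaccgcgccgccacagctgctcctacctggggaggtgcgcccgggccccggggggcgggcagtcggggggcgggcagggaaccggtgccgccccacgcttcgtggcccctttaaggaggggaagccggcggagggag
PAX8, chr2:113278922-113279171, minus strand: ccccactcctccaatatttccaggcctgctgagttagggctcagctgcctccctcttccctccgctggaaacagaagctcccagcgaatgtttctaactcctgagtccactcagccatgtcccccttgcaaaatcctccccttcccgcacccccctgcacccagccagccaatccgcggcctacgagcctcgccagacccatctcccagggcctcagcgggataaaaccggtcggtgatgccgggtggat

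The stretch before the inner start of NKX2-1 held 1 match each to the NKX2 core, the forkhead motif TGTTTAC and the GATA factor motif (the latter on the opposite strand, so that it reads TTATCT), beginning 147, 130 and 100 bases before the start. The 3 matches do not overlap. Of all 35116 promoter stretches of this length, 9.50% held CAAGTG, 2.98% TGTTTAC and 9.17% AGATAA. For the other motifs the shares were 2.39% for TATTTAC, 9.29% for ACAATG, 13.7% for ACAAAG and 6.57% for TGANTCA. No motif was found in the stretches of FOXE1 and PAX8, nor in that before the outer start of NKX2-1 (chr14:36520233-36520482). A match is a description of the letters only.

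The 4 stretches differed in base composition. GC content was 75.6% with 26 CpG dinucleotides at FOXE1 and 70.8% with 18 at the outer start of NKX2-1. It was 61.6% with 11 at PAX8 and 49.6% with 7 at the inner start of NKX2-1. The medians over all stretches were 58% and 11. Peaks covered some of the stretch in 4 libraries at FOXE1 (hESC replicate 2, hDE replicate 1, hAFE replicate 2 and hPFE) and in 5 at the outer start of NKX2-1 (all but the 2 of hAFE). At PAX8 the stretch had a peak only in the 2 hESC libraries. At the inner start of NKX2-1 peaks were found in hESC replicate 2 and both hDE libraries, and the summits of the 2 hDE libraries lay 59 and 54 bases before the start, inside the printed sequence.

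Heights are given as the summit pileup of cut sites, recovered from the deposited fold enrichment and −log10 p, divided by the genome-wide background of the library. That background, a measure of depth, ran from 2.11 to 7.94, and the median height of strong regions from 11.7 in hPFE to 33.8 in hAFE replicate 1. Heights are therefore read against the strong or not strong status in the same library, and level differences were tested only after centring each library on its median. Among the 60 regions, 4 were strong in all 7 libraries (6.67%, against 11.2% of all regions) and 25 had a peak in all 7 (41.7% against 30.6%). Another 26 were strong in a single library (43.3%, as in all regions). Of the 679 merged regions per library at the loci, 330 overlapped the 60 regions and 349 were strong nowhere, the highest of these reaching a height of 18.8.

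**Figure D1:**
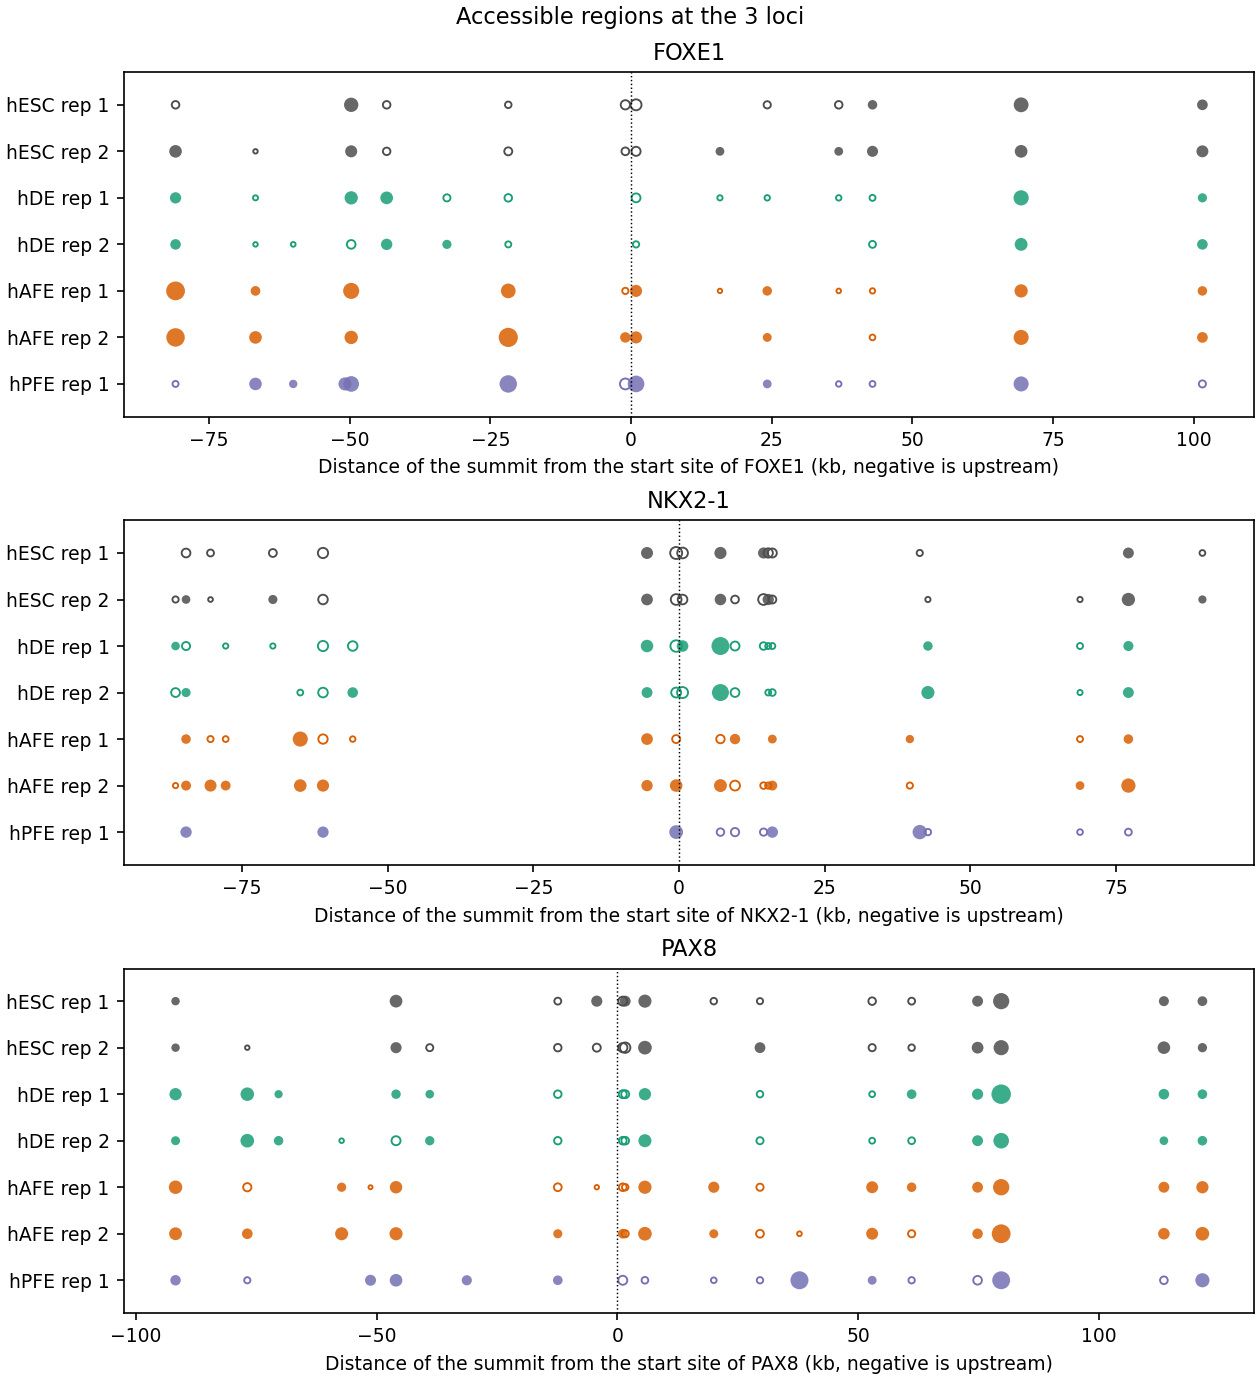
Accessible regions at FOXE1, NKX2-1 and PAX8 in the 7 libraries, by distance of the summit from the start site in kb (negative is upstream). Filled circles are strong regions and open circles peaks that were not strong, and circle area is proportional to the height divided by the median height of strong regions of the library. The FOXE1 regions 66.7 and 21.8 kb upstream, at 0.9 kb and 24.2 kb downstream are filled in all 3 hAFE and hPFE rows and in no other, while the NKX2-1 region 5.5 kb upstream has no circle in hPFE.

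FOXE1 had more strong regions in hAFE and hPFE than at the earlier stages. The hESC libraries had 4 and 7, those of hDE 5 and 5, those of hAFE 8 and 9 and hPFE 8, so that the later 3 libraries did not overlap the earlier 4. How many windows of other genes divide the libraries in this way was not counted. The same division separates the re-analysed from the other libraries. NKX2-1 had most in hAFE, with 8 and 12, against 4 and 7 for hESC, 6 and 6 for hDE, and 5 in hPFE. PAX8, whose window is longer, had 9 and 8 for hESC, 11 and 9 for hDE, 11 and 13 for hAFE and 9 for hPFE, where the stages overlapped. Counted only where all libraries of a stage were strong, FOXE1 had 4, 4, 8 and 8 regions in hESC, hDE, hAFE and hPFE, NKX2-1 had 3, 4, 5 and 5, and PAX8 had 7, 9, 10 and 9. With the 25000 strongest regions as the limit, FOXE1 counts were 3 and 5, 3 and 3, 4 and 6, and 6, which overlap, and NKX2-1 counts no longer peaked in hAFE (1 and 1, 1 and 2, 1 and 1, and 3). With the 100000 strongest, hAFE replicate 2 had 11 FOXE1 regions, the number also reached in hESC and hDE, and NKX2-1 counts were 14 and 20 for hESC, 19 and 13 for hDE, 14 and 19 for hAFE and 12 for hPFE, highest in hESC replicate 2. The hAFE maximum of NKX2-1 thus held at the 50000 limit and at neither other.

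**Figure D2:**
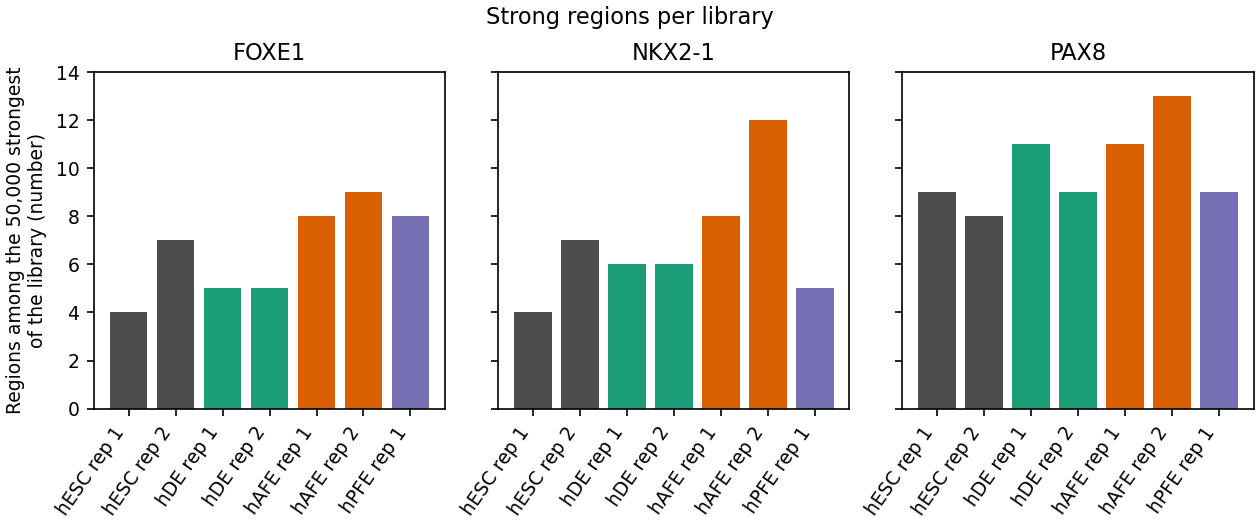
Number of regions at each locus among the 50000 strongest of the library, 1 bar per library. The hAFE and hPFE bars of FOXE1 (8, 9 and 8) stand above its hESC and hDE bars (4 to 7), the 2 hAFE bars are the highest for NKX2-1, and the PAX8 bars of all stages lie between 8 and 13.

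A region was called gained at a step when it was strong in every library of the later stage and had no deposited peak in any of the earlier, and lost in the reverse case. These calls were not tested. At the loci 1 of 60 regions was gained from hESC to hDE (5.43% of all regions) and 0 were lost (1.15%). From hDE to hAFE 1 was gained (2.05%) and 4 were lost (3.2%). From hAFE to hPFE 4 were gained (8.45%) and 3 lost (4.18%), and from hESC to hPFE 5 were gained (13.4%) and 1 lost (6.62%). The numbers are small, and only those lost from hDE to hAFE and from hAFE to hPFE were a larger share than among all regions. Between single libraries, 0 or 1 of the 60 locus regions was strong in a replicate and without a peak in its partner. Between libraries of different stages it was 1 to 7. Over all regions the shares were 0.047% to 1.65% between replicates and 4.35% to 16.0% between stages, so the contrast was not particular to the loci.

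These 19 calls fell on 14 regions, 4 at NKX2-1, 3 at FOXE1 and 7 at PAX8. None of the 14 lay within 1 kb of an end of the 3 genes. In the RefSeq spans 12 of the 14 lay inside a gene and all 12 in a long non-coding RNA gene, with 2 of these also inside PAX8. For comparison, 40 of the 60 regions lay inside some gene span. How many of the 60 lay in a long non-coding RNA gene was not counted, so no background share stands beside the 12. All regions upstream of FOXE1, called or not, lay in such a gene. The reference used gives spans and start sites, and exons, introns and untranslated regions were not told apart.

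FOXE1 occupies chr9:97853226-97856717 on the plus strand, and every one of its upstream regions lies inside the span of PTCSC2, a long non-coding RNA gene. The largest rise from hDE to hAFE among the tested locus regions was at 21.8 kb upstream (chr9:97831196-97832126). Its heights were 4.27 and 11.0 for hESC, 5.90 and 7.93 for hDE, 54.5 and 52.2 for hAFE and 26.5 for hPFE. By −log10 p it stood at place 12731 and 5327 in the hAFE libraries and at place 4252 in hPFE, against places from 60168 to 158727 in hESC and hDE, with no overlap. The share of all regions whose places divide the libraries in this way was not counted. In such bulk libraries, more cells with an open region and more cutting per cell cannot be told apart. In the limma fit the region rose from hDE to hAFE by 2.44 on the log2 scale (SE 0.43, 5.43-fold, adjusted p = 1.57e-06). From hESC to hPFE it rose by 2.91 (SE 0.53, 7.50-fold, adjusted p = 7.85e-06). The hAFE summits lay within 27 bases of the hPFE summit and the hDE summits 64 and 97 bases from it, while the hESC summits lay 401 and 585 bases from it, so the hESC values are those of another summit of the same region.

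These adjusted p-values come from limma, fitted over 39726 regions with a peak in all 7 libraries and adjusted over all of them. Of the 60 locus regions 25 could be tested this way. The fit took the error of each region from the trend over all regions, the single hPFE library being assumed to vary like the others. With the own spread of each region in its place, no region of the 39726 passed the threshold of 0.05, while 22 of the comparisons at the loci had an unadjusted p under 0.05, against 23 in limma as fitted. All level calls rest on that shared error.

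The region over the start of FOXE1 (chr9:97853014-97854578), whose summit lay about 0.9 kb into the gene, was strong in the later stages only. Its heights were 11.8 and 14.3 for hESC, 8.08 and 8.56 for hDE, 36.9 and 20.8 for hAFE and 24.2 for hPFE. The later values all exceed the earlier ones, and the share of all regions for which this holds was not counted. The level rose from hESC to hPFE by 1.85 on the log2 scale (SE 0.52, 3.61-fold, limma adjusted p = 0.00970). Neither single step passed, at 1.21 from hDE to hAFE (SE 0.43, adjusted p = 0.0560) and 1.22 from hAFE to hPFE (SE 0.52, adjusted p = 0.216). The summits of all 7 libraries lay within 38 bases of that in hPFE. The call from hESC to hPFE was kept in 7 of 9 alternatives and lost, among others, without hESC replicate 2 (adjusted p up to 0.130 over the alternatives).

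The region 80.9 kb upstream (chr9:97771557-97772810), nearest to the coding gene XPA, had its highest values in hAFE. Heights were 5.69 and 27.5 for hESC, 13.1 and 24.3 for hDE, 89.2 and 48.3 for hAFE and 3.18 for hPFE. It was strong in 5 libraries, and hPFE held the lowest value. The level rose from hDE to hAFE by 1.36 (SE 0.41, 2.56-fold, limma adjusted p = 0.0183) and fell by 2.96 on the log2 scale from hAFE to hPFE (SE 0.51, 0.129-fold, limma adjusted p = 3.43e-06). The rise to hAFE was kept in 4 of 9 alternatives, and was not called under quantile normalisation (adjusted p = 0.0963) or without either hDE or either hAFE library (up to 0.215), and the fall to hPFE was called in all 9 alternatives other than the own spread. The hPFE summit lay 211 bases from that of hAFE replicate 1. The region 49.7 kb upstream (chr9:97803286-97804159) was strong in 6 libraries, with heights of 20.4 and 25.1 for hESC, 18.1 and 16.4 for hDE, 65.3 and 25.5 for hAFE and 21.4 for hPFE, and passed in no comparison.

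Of the other described FOXE1 regions, 3 were gained or lost. The region 43.4 kb upstream (chr9:97809324-97810470) had heights of 5.69 and 9.74 in hESC and 16.6 and 28.1 in hDE, and no peak in hAFE or hPFE. It counted as lost from hDE to hAFE, and did so under all 8 alternatives. The region 50.8 kb upstream (chr9:97802290-97802589) had a peak only in hPFE, at a height of 15.0, and lies next to the region at 49.7 kb. The region 60.0 kb upstream (chr9:97793048-97793583) had heights of 4.91 in hDE replicate 2 and 6.18 in hPFE. Both counted as gained in hPFE, the latter at a low height. The region 1.0 kb upstream (chr9:97852026-97852579) had heights of 8.53 and 10.4 in hESC, 9.91 and 15.6 in hAFE and 10.2 in hPFE, no peak in hDE, and was strong in hAFE replicate 2 only.

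**Figure D3:**
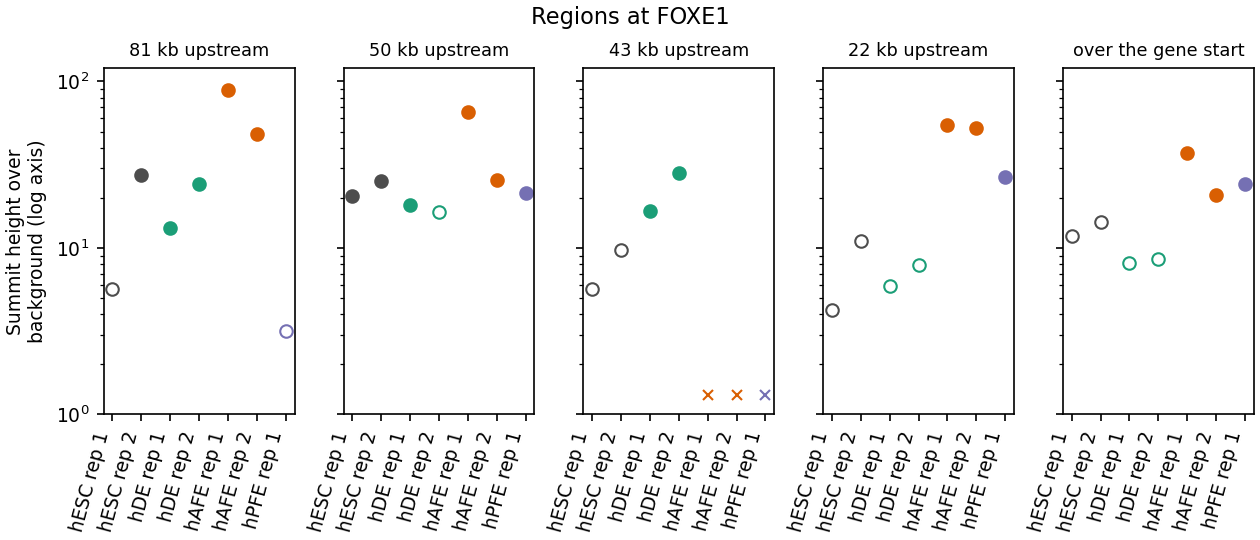
Summit height over background, on a log axis, of 5 FOXE1 regions in the 7 libraries. Filled circles are strong, open circles are peaks that were not strong, and crosses mark libraries without a peak. At 22 kb upstream and over the gene start the hAFE and hPFE circles are all filled and lie above the open hESC and hDE circles, and at 43 kb upstream the 3 later libraries are crosses.

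Strength in all 3 hAFE and hPFE libraries and in none of the 4 hESC and hDE libraries was looked at after the values were seen. It held for 6 of the 60 regions (10%, against 1.61% of all regions), and 4 of the 6 were at FOXE1, at 66.7 and 21.8 kb upstream, over the gene start and at 24.2 kb downstream. The other 2 were 16.0 kb downstream of the start of NKX2-1 and 52.9 kb into PAX8. The region 66.7 kb upstream of FOXE1 had no peak in hESC replicate 1, heights from 2.62 to 4.41 in the other earlier libraries, 23.9 and 22.6 in hAFE and 13.8 in hPFE. The region 24.2 kb downstream, nearer to TRMO, had heights of 5.21 in hESC replicate 1 and 3.06 in hDE replicate 1, 23.0 and 11.2 in hAFE and 6.71 in hPFE. The opposite pattern, strong in all 4 earlier and no later library, held for 0 of the 60 (1.02% of all). The NKX2-1 region had heights from 3.71 to 11.0 in the earlier libraries and from 11.3 to 19.8 in the later ones. This division of the libraries is also that between the re-analysed and the other libraries, and stage and source cannot be told apart here.

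NKX2-1 occupies chr14:36516397-36520232 on the minus strand, with start sites at 36520232 and 36519556, here called outer and inner and 676 bases apart. The region at the inner start (chr14:36519508-36519946) overlapped a peak in the hESC and hDE libraries only. Its heights were 11.4 and 16.0 for hESC and 13.8 and 26.1 for hDE, and no peak overlapped it in hAFE or hPFE. It was strong only in hDE replicate 1 and so was not called lost. The hESC peaks had their summits 541 and 656 bases from that of hDE replicate 1, outside the region. Only the hDE summits fall in the sequence printed above, and the hESC heights are those of another summit. Within 500 bases of the inner start, hAFE replicate 2 and hPFE also had a peak, at heights of 10.1 and 7.60. Their summits lay 271 and 330 bases past that start, inside the gene. The region 0.5 kb upstream of the outer start (chr14:36520622-36520902) had a peak throughout, with heights of 14.2 and 19.9 for hESC, 13.5 and 21.3 for hDE, 16.2 and 22.3 for hAFE and 16.6 for hPFE, and summits within 11 bases of that in hPFE. It was strong only in hAFE replicate 2 and hPFE, and its level difference from hAFE to hPFE was 1.22 (SE 0.51, limma adjusted p = 0.200).

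The tallest NKX2-1 region in hDE lay 7.1 kb downstream of the start, past the end of the gene and inside the span of the long non-coding RNA gene SFTA3 (chr14:36512561-36513970). Heights were 14.7 and 23.2 for hESC, 33.2 and 62.7 for hDE, 18.0 and 23.6 for hAFE and 4.95 for hPFE. Both hDE values stand above all others, also after centring (1.39 and 1.45 against -0.89 to 0.32 on the log2 scale). The share of all regions for which this holds was not counted. The level rose from hESC to hDE by 1.37 (SE 0.41, 2.59-fold, limma adjusted p = 0.0162) and fell by 1.67 on the log2 scale to hAFE (SE 0.41, 0.315-fold, limma adjusted p = 0.00134). The hESC and hAFE summits lay 354 to 380 bases from that of hDE replicate 2, while the other hDE summit and the hPFE summit lay within 18 bases of it, so that the strongest summit of the region was not the same one. The rise was not called without any one of the hESC or hDE libraries (adjusted p up to 0.200 over the alternatives), nor the fall without hDE replicate 2 or hAFE replicate 1 (up to 0.322).

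Upstream of NKX2-1, the region at 5.5 kb (chr14:36524901-36525966), inside an uncharacterised long non-coding RNA gene, was strong in all 6 hESC, hDE and hAFE libraries. Its heights there were 14.2, 23.8, 16.2, 25.9, 34.7 and 18.2, and hPFE had no peak. It was lost from hAFE to hPFE and from hESC to hPFE, under all alternatives but the 25000 limit. The region 77.1 kb downstream (chr14:36442664-36444020) was likewise strong in those 6 libraries, with heights from 10.5 to 30.5, and had a height of 4.06 in hPFE. Its level difference from hAFE to hPFE was -1.25 (SE 0.52, limma adjusted p = 0.191).

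At 3 further NKX2-1 regions the call followed 1 stage. The region 42.7 kb downstream (chr14:36476854-36477852), in SFTA3, had heights of 9.17 and 37.4 in hDE, 4.76 in hESC replicate 2, 3.53 in hPFE and no peak in hAFE. The region 41.3 kb downstream (chr14:36478709-36479221), its neighbour, had heights of 18.0 in hPFE and 3.79 in hESC replicate 1 and no peak elsewhere. The first counted as lost from hDE to hAFE and the second as gained from hAFE to hPFE. The region 65.0 kb upstream (chr14:36585023-36585577), nearest to the homeobox gene NKX2-8, had heights of 57.7 and 22.6 in hAFE and 7.43 in hDE replicate 2, and no peak in the 4 other libraries. It counted as lost from hAFE to hPFE. Of the 22 regions 8, this one included, also lie within 100 kb of PAX9, a pharyngeal marker gene, and all 8 are nearest to NKX2-8.

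PAX8 occupies chr2:113215997-113278921 on the minus strand, and part of its span is shared with PAX8-AS1 on the opposite strand. The highest of the regions gained in hPFE lay 37.8 kb into the gene, in the span of both genes (chr2:113240827-113241387). Its height was 28.3 in hPFE and 3.12 in hAFE replicate 2, with no peak in the other 5 libraries, and it was gained from hESC to hPFE under all 6 alternatives. At 20.0 kb into the gene (chr2:113258464-113259123) heights were 31.5 and 11.4 in hAFE, 4.27 in hESC replicate 1 and 2.83 in hPFE, with no peak in hDE, a gain from hDE to hAFE. ATAC-seq does not tell which of the overlapping genes a region belongs to.

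At the start of PAX8, the region 1.1 kb into the gene (chr2:113277487-113278128) was strong in 1 library. Heights were 8.06 and 14.9 for hESC, 6.55 and 12.8 for hDE, 14.9 and 13.2 for hAFE and 7.07 for hPFE, and the strong one was hAFE replicate 2. Its level difference was 0.32 from hESC to hPFE (SE 0.57, limma adjusted p = 0.771). Counted from the summit of hAFE replicate 2, the offset was 1038 bases in hESC replicate 1 and -469 in hDE replicate 2. Both summits lay outside the region, that of hESC replicate 1 only 93 bases into the gene. The hDE heights were also those of the neighbouring region 1.6 kb into the gene. These heights and the level difference therefore compare different summits. The region 5.7 kb into the gene (chr2:113273003-113273443) was strong in hESC, hDE and hAFE, with heights of 17.1 and 32.5, 15.5 and 36.9, and 44.1 and 26.5, and had a height of 3.89 in hPFE. The hPFE value is below all others, and the share of all regions for which this holds was not counted. After centring, too, the region was lowest in hPFE, at -1.24 against 0.29 to 0.69 on the log2 scale. It fell by 1.73 on the log2 scale from hAFE to hPFE (SE 0.50, 0.302-fold, limma adjusted p = 0.0172) and by 1.64 from hESC to hPFE (SE 0.50, 0.321-fold, limma adjusted p = 0.0191). The first call was kept in 5 of 9 alternatives, being lost under quantile normalisation (adjusted p = 0.0713) and without either hAFE library, among others. The second was kept in 6 of 9 and lost without either hESC library, among others (adjusted p up to 0.124 and 0.136 over the alternatives). At 52.9 kb into the gene (chr2:113225589-113226419) heights were 5.69 and 8.87 for hESC, 3.49 and 7.56 for hDE, 36.0 and 20.3 for hAFE and 6.89 for hPFE. It rose from hDE to hAFE by 1.87 (SE 0.48, 3.66-fold, limma adjusted p = 0.00302), a call lost without hDE replicate 1 or hAFE replicate 1 (adjusted p up to 0.0671 over the alternatives). The regions at 5.7 and 52.9 kb were chosen after their values were seen.

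Upstream of PAX8, 5 regions were gained or lost. The one at 70.4 kb (chr2:113348945-113349633) was seen in hDE alone, at heights of 6.99 and 19.5, and was both gained from hESC and lost to hAFE. The one at 39.0 kb (chr2:113317559-113318072) had heights of 7.64 and 18.9 in hDE and 8.66 in hESC replicate 2 and was lost to hAFE. At 57.3 kb (chr2:113336022-113336394) heights were 21.6 and 24.2 in hAFE and 4.53 in hDE replicate 2, and the region was lost to hPFE. The regions at 31.3 kb (chr2:113310104-113310340) and 51.3 kb (chr2:113330047-113330550) had heights of 9.01 and 10.6 in hPFE, the latter also 4.05 in hAFE replicate 1, and were gained from hESC to hPFE. None of the 5 was called with the 25000 strongest as the limit.

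The strongest PAX8 region in most libraries lay downstream of the gene inside PSD4, 79.7 kb from the PAX8 start (chr2:113198563-113199497), with heights of 26.1 and 39.8 for hESC, 39.1 and 53.0 for hDE, 67.6 and 50.1 for hAFE and 27.9 for hPFE. It was strong in all 7, as were those 91.8 kb upstream and 121.5 kb downstream of PAX8 and 69.3 kb downstream of FOXE1, the last inside TRMO. The region at 121.5 kb (chr2:113156958-113158114), also nearest to PSD4, had heights of 9.48 and 14.9 for hESC, 9.61 and 20.0 for hDE, 37.8 and 26.5 for hAFE and 17.5 for hPFE. It rose from hESC to hPFE by 1.51 (SE 0.51, 2.85-fold, limma adjusted p = 0.0424), a call kept in 3 of 9 alternatives and lost, among others, under quantile normalisation (adjusted p = 0.0974) and without either hESC or either hAFE library (up to 0.176).

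**Figure D4:**
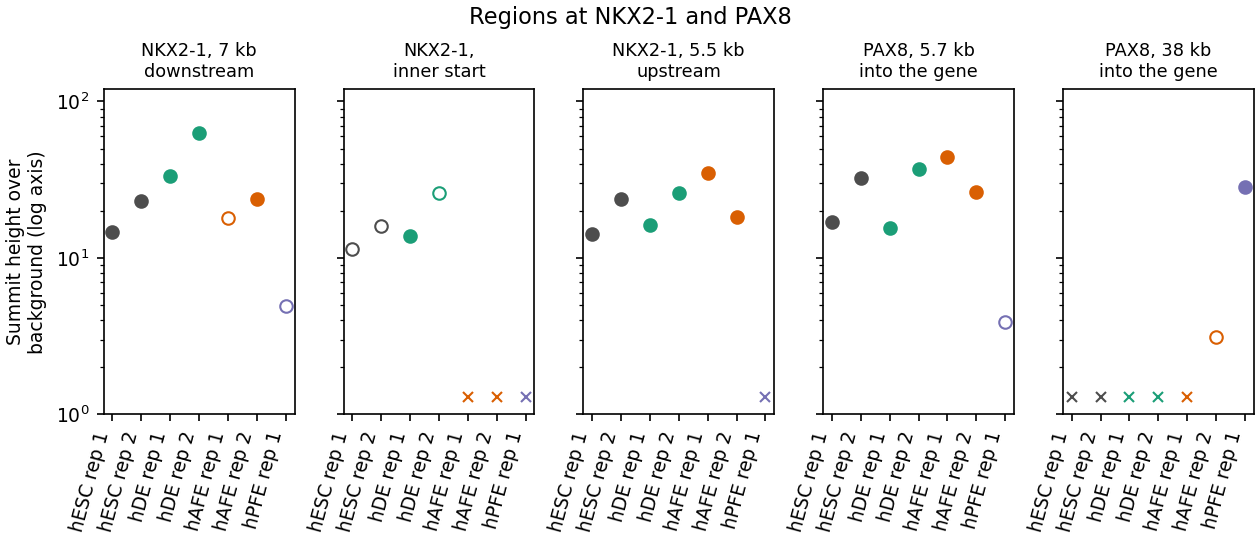
Summit height over background, on a log axis, of 3 NKX2-1 and 2 PAX8 regions in the 7 libraries, with symbols as in the plot of FOXE1 regions. The hDE circles are highest 7 kb downstream of the NKX2-1 start, the 3 later libraries are crosses at its inner start, and hPFE is a cross 5.5 kb upstream of NKX2-1 and the only filled circle 38 kb into PAX8.

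Over the 25 tested regions of the loci limma made 11 calls at 7 regions, 3 at FOXE1, 1 at NKX2-1 and 3 at PAX8. From hESC to hDE 1 was higher (4.03% of all tested regions) and 0 lower (2.13%), with 1 lower at an unadjusted p under 0.05. From hDE to hAFE 3 were higher (3.4%) and 1 lower (4.08%). From hAFE to hPFE 0 were higher (2.38%), with 2 at an unadjusted p under 0.05, and 2 lower (2.12%). From hESC to hPFE 3 were higher (4.39%) and 1 lower (3.25%). The median log2 difference of the 25 was 0.08, 0.12, 0.35 and 0.64 in these comparisons, against 0.08, 0.07, 0.05 and 0.19 over all tested regions. At FOXE1 the 7 tested regions had a median of 0.72 from hDE to hAFE, at NKX2-1 0.08 over 6 and at PAX8 0.12 over 12. The comparisons share libraries and are not independent of each other.

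**Figure D5:**
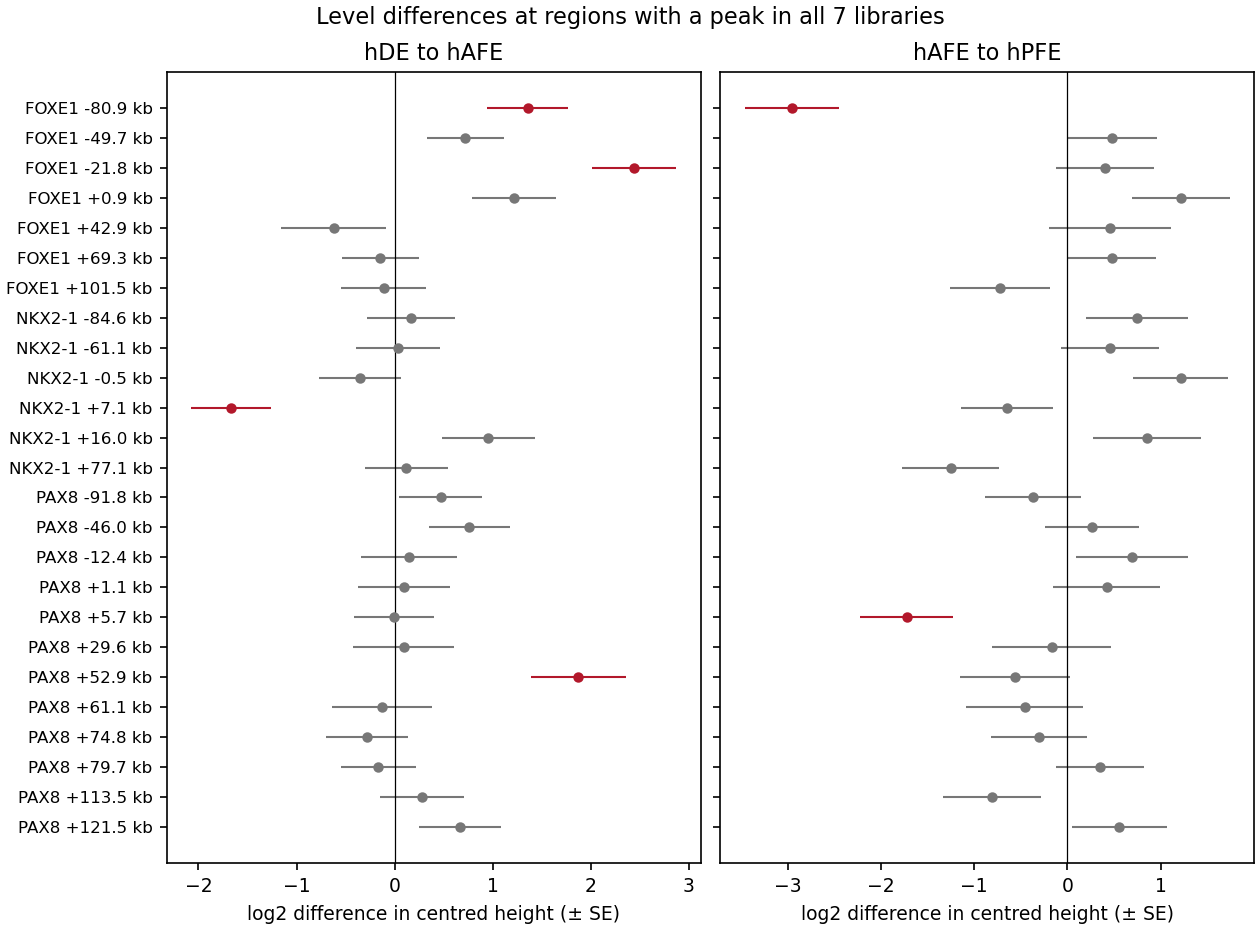
Log2 difference in centred height with its standard error from limma, from hDE to hAFE and from hAFE to hPFE, at the 25 regions with a peak in all 7 libraries. Red marks an adjusted p under 0.05. FOXE1 at 21.8 kb upstream stands farthest to the right from hDE to hAFE (2.44) and FOXE1 at 80.9 kb upstream farthest to the left from hAFE to hPFE (-2.96).

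The other genes of the thyroid and lung programme were described from a list of 25, among them thyroid hormone synthesis genes, foregut transcription factors and lung epithelial genes, with 208 regions assigned to them as the nearest gene. Its strong regions numbered 60 and 76 for hESC, 97 and 79 for hDE, 77 and 76 for hAFE and 80 for hPFE. From hESC to hDE 13 regions at 9 genes were gained (6.25%) and 0 lost. From hDE to hAFE 1 was gained and 12 at 6 genes were lost (5.77%). From hAFE to hPFE 14 at 8 genes were gained (6.73%) and 5 at 4 genes lost (2.40%). From hESC to hPFE 25 were gained (12%) and 10 lost (4.81%). Of all regions, 5.43% were gained from hESC to hDE, 3.2% lost from hDE to hAFE, 8.45% gained from hAFE to hPFE and 13.4% gained from hESC to hPFE. Of the 12 regions of the list lost from hDE to hAFE, 6 were at FOXP2 alone.

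Calls were most frequent at 4 transcription factor genes. GLIS3, a zinc finger factor of the thyroid and pancreas, had 3 of its 21 regions gained from hESC to hDE and 3 gained and 2 lost from hAFE to hPFE. FOXP2, a forkhead factor of the lung epithelium, had those 6 of its 16 regions lost. FOXP1, its relative, had 4 of 21 gained from hAFE to hPFE. GATA6, an endoderm factor, had 2 of 14 gained from hESC to hDE and 2 lost to hAFE. At the hormone synthesis genes calls were few. At TG, the gene of thyroglobulin, hESC had 0 and 1 strong regions, hDE 3 and 3, hAFE 1 and 1 and hPFE 0. SLC5A5, the iodide symporter gene, had 2 and 4, 1 and 0, 1 and 1, and 1, and no region gained or lost.

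Marker genes were checked in the same way. Strong regions at 3 stem cell genes numbered 11 and 16 in hESC against 1 to 8 in the other libraries, and those at 5 definitive endoderm genes 42 and 34 in hDE against 18 to 28 elsewhere. The 6 pharyngeal genes had 29 in hPFE, within the range of the other libraries (21 to 31), and TBX1, one of them, had 2 in hAFE replicate 1 and 2 in hPFE and 0 in the 5 other libraries. The 4 foregut genes had 15 and 16 in hAFE, within the range of hESC and hDE (9 to 19). The counts thus set hESC and hDE apart and did not set hAFE and hPFE apart from the other stages. Among genes of other tissues that use these factors or could be present, forebrain and neural genes had 22 in hPFE (24 to 40 elsewhere) and kidney genes 20 (17 to 28). Mesenchyme genes had 20 (12 to 24) and surface ectoderm genes 23 (7 to 17), with TP63 at 10 in hPFE against 2 to 4. Their part in the results above was not tested, and none of these lists had a count of 0 in any library.

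By a rule on the profile of strong regions over the 7 libraries, the genes most like NKX2-1 were PPIAL4D (Pearson r = 0.974), ARMCX6 and ARMCX3 (both 0.968, from neighbouring windows), of 19165 candidates. Those most like FOXE1 were PTPN12 (0.973), PSMG2 (0.972) and NATD1 (0.970), and those most like PAX8 were PRDM8 (0.985), KPNA3 (0.972) and POLB (0.965). With 7 points and this many candidates, values of this size are a description of the counts. The points share each library's depth.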

How the data were processed

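The data are ATAC-seq peak lists, 1 per library, from 7 libraries of H1 cells. The build was hg38 and DiffBind is listed with no version, per the submitters' processing notes. The deposited file names record removal of duplicates, Tn5 cut sites, a p limit of 0.01 and a limit of 300000 peaks. Which aligner and peak caller made them is not given in the sources used here. Each peak carries the authors' fold enrichment (a ratio) and the deposited −log10 p. The deposited score and −log10 q were not used.

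Summit pileup P and local background L were recovered from the fold, (P + 1)/(L + 1), and the Poisson tail for −log10 p, within 0.001 for 100% of peaks. No read depth is given. The library background is the most frequent L among weaker regions. Overlapping peaks were merged and ranked by −log10 p, strong regions being the top 50000. Strong regions of the 7 libraries were joined where they overlapped by 1 bp, on the autosomes and X. Level differences used limma 3.58.1 in R 4.3.3 (trend, moderated) on log2 height, computed from the deposited values and centred on each library's median, with 4 stage groups, adjusted by Benjamini-Hochberg at 0.05. Its prior degrees of freedom were infinite, and 3 residual ones remained. On simulated data for hDE to hAFE over 39726 regions, 71% of log2 changes of 2 and 5% of changes of 1 were called, and 0.00759% of unchanged regions. The simulated noise was normal, with the shared error of the fit as its spread. These rates therefore cannot show whether that error holds for the data. Groups and replicates come from the sample titles. Genes, starts and sequences are from RefSeq tables of GRCh38.p14.

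Regions described in full were those within 1 kb of a member's end, those gained or lost, and the 3 best ranked in any stage at each locus. Similar genes needed at least 10 strong regions, counted in a window of 100 kb. The members, lists and rules were chosen with earlier results of these data known. Alternatives changed the strong limit, the rule for absence, the overlap, the normalisation, the replicate block, the regions tested and the libraries included.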

Additional observations from a re-analysis of the deposited data

How the results depend on the processing

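None of the 23 level differences at the loci with an unadjusted p under 0.05 changed sign under any alternative. With the 25000 strongest regions as the limit, gained and lost regions at the loci numbered 0 and 0 from hESC to hDE, 0 and 1 from hDE to hAFE, 2 and 0 from hAFE to hPFE and 2 and 0 from hESC to hPFE. With the 100000 strongest they numbered 5 and 1, 3 and 7, 13 and 7, and 18 and 6, so the counts depend on this limit. In another alternative, a region counted as absent if it was outside the 150000 strongest of a library. Then 2 were gained from hESC to hDE, 5 were gained from hDE to hAFE, 6 were lost from hAFE to hPFE and 3 were lost from hESC to hPFE. At the loci more regions were thus gained (5) than lost (4) from hDE to hAFE, the reverse of the 1 and 4 reported. Over all regions fewer were gained (3.07%) than lost (4.64%) at that step. The stage with the most NKX2-1 regions also changed with the limit. Requiring 50% overlap changed no count. Leaving out 1 library at a time gave 1 to 4 gained and 0 to 1 lost from hESC to hDE, 2 to 3 gained from hDE to hAFE, 4 to 5 lost from hAFE to hPFE and 3 to 5 lost from hESC to hPFE. Fewer libraries per stage make both definitions easier to meet.

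For levels, quantile normalisation left 1 region lower from hAFE to hPFE. With peaks needed only in the 2 stages compared, 2 were higher from hESC to hDE and 5 from hDE to hAFE. With the own spread of each region, added after seeing the data, 0 were called in every comparison. Leaving out 1 library gave 0 to 1 higher from hESC to hDE, 1 to 3 higher and 0 to 1 lower from hDE to hAFE, 1 to 2 lower from hAFE to hPFE, and 1 to 3 higher and 0 to 1 lower from hESC to hPFE. Of the 11 level calls, 8 remained under quantile normalisation, 7 under the replicate block and 6 to 8 without 1 library. The FOXE1 region 21.8 kb upstream was called in all 9 alternatives other than the own spread, at 2.11 to 2.78 from hDE to hAFE and 2.60 to 3.22 from hESC to hPFE on the log2 scale, as was that at 80.9 kb from hAFE to hPFE (-3.13 to -2.72).

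With the replicate number as a block, 1 region was lower from hAFE to hPFE, 1 was higher and 0 were lower from hESC to hPFE. The calls lost were FOXE1 at 0.9 kb (adjusted p = 0.0706) and PAX8 at 121.5 kb (0.0768) from hESC to hPFE, and PAX8 at 5.7 kb from hAFE to hPFE (0.0697) and from hESC to hPFE (0.0719). Libraries with the same number did not deviate together (correlations over regions of -0.05 for hESC and hDE, -0.28 for hESC and hAFE and 0.14 for hDE and hAFE), so the numbers were not taken as pairs. The hPFE stage has 1 library and could not be left out. A missing peak is not closed chromatin, since each list ends at its limit on number, and the weakest peak listed had a height from 2.47 to 3.78.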
